A study of Mus musculus with 3 samples.

Results

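Potassium channel genes were described in neurons of the intrinsic cardiac nervous system, the ganglia that sit on the atria of the mouse heart. The set holds 35 genes, channel subunits and their partners, out of the 30406 genes that all 3 count matrices list. It was chosen with earlier results of these data known. Values for the set are therefore set beside those for all genes as description, and the difference between them was not tested. All 35 were found in every matrix. The cells came from the atria of Baf53b-cre;lox-GFP mice of both sexes, in which Cre under control of Baf53b (Actl6b, a neuronal subunit of a chromatin remodelling complex) switches on GFP, and fluorescent cells were sorted and sequenced with the 10x Chromium 3′ V3 kit. There was 1 library from pooled ganglia (mixed, labelled 2 months), 1 from the anterior section (3 months) and 1 from the posterior section (4 months), each from pooled mice, so that region, library and labelled age cannot be told apart. Values are given below in the order mixed, anterior, posterior.

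Potassium channels let potassium leave the cell and so draw the membrane away from the firing threshold. Voltage-gated (Kv) channels open on depolarization and repolarize the action potential, KCNQ channels carry the M current that muscarinic receptors suppress in autonomic neurons, and calcium-activated BK and SK channels shape the after-hyperpolarization. K2P leak channels and inward rectifiers set the resting potential, and the GIRK group of rectifiers is opened by G protein-coupled receptors, the route by which vagal acetylcholine slows the heart.

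The libraries held 2829, 2256 and 3276 barcodes and 119825307, 55329380 and 86391988 UMIs, counts of unique RNA molecules. Each pair of libraries shared 2 or 3 barcodes. A neuron was a barcode with at least 10000 UMIs, at most 20% mitochondrial UMIs and at least 1 UMI each of Snap25, Prph and Stmn2, which left 1971, 1314 and 1443 neurons with median depths of 57355, 39858.5 and 57249 UMIs. All 5 neuron markers, Actl6b included, were detected in neurons of every library, and Actl6b was higher in neurons than in glia by 4.94 ± 0.49 (log2 fold change ± SE). Levels are UMIs of a gene per 10000 UMIs of the summed cells. A molecule is counted once at its 3′ end, so levels were not scaled by transcript length. How evenly the 3′ ends of different genes were captured was not tested, so orders between genes are orders of counted UMIs.

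Across all neurons the channel transcripts were dominated by a few genes. The members summed to 8.50, 10.6 and 12.3 UMIs per 10000 in the 3 libraries, and the 5 most abundant, Kcnq3, Kcnip4, Kcnma1, Kcnc4 and Kcnk3, held 67.2% of the mean sum. By their mean level over libraries, 18 members reached 0.1 per 10000, 17 lay below it and 5 of those lay below 0.01. Neighbours in the order of mean level overlapped between libraries except at 5 steps, which followed Kcnip4, Kcnk3, Kcnn1, Kcnab1 and Kcna3.

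**Figure D1:**
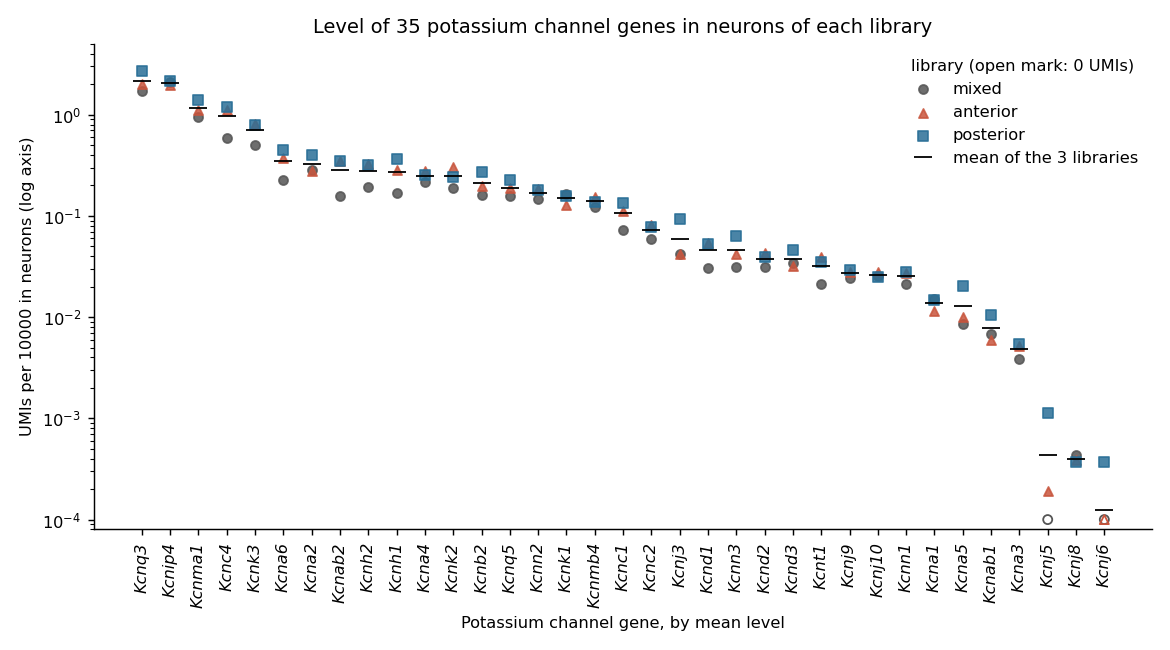
Level of the 35 potassium channel genes in all neurons, in UMIs per 10000 on a log axis, ordered by mean level, with 1 mark per library and an open mark for 0 UMIs. Kcnq3 and Kcnip4 stand at the top at about the same level, and Kcnj5, Kcnj6 and Kcnj8 lie at or near 0.

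The M-current subunit Kcnq3 (chr15:65986387-66286642, minus strand) was the most abundant member by mean level, and was below Kcnip4 in the mixed library. Kcnq3 stood at 1.70, 2.00 and 2.70 per 10000, a mean of 2.13 ± 0.515 (SD, n = 3 libraries). Its partner Kcnq5 stood at 0.158, 0.189 and 0.226. The KCNQ transcripts were therefore unequal in every library, with no overlap between the 2 genes. The EAG and ERG channel genes Kcnh1, at 0.170, 0.286 and 0.362, and Kcnh2, at 0.193, 0.329 and 0.317, overlapped each other.

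Kcnip4, a calcium-binding subunit of Kv4 channels (chr5:48389502-49524907, minus strand), matched Kcnq3 at 2.12, 1.96 and 2.14 per 10000. The Kv4 pore genes themselves were low. Kcnd1 reached 0.0309, 0.0540 and 0.0532, Kcnd2 0.0310, 0.0432 and 0.0395, and Kcnd3 0.0340, 0.0320 and 0.0462, with overlapping ranges. Every library thus held far more UMIs of the auxiliary gene than of the 3 pore genes.

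Among Kv3 genes, whose fast channels allow brief action potentials, Kcnc4 led at 0.594, 1.12 and 1.20 per 10000, above Kcnc1 at 0.0718, 0.112 and 0.134 and Kcnc2 at 0.0591, 0.0808 and 0.0779. The Kv1 genes, which make low-threshold channels, spanned a wide range. Kcna6 (0.229, 0.372 and 0.449), Kcna2 (0.286, 0.280 and 0.403) and Kcna4 (0.217, 0.277 and 0.253) overlapped one another. Kcna1 and Kcna5 were below 0.021 in every library, and Kcna3 had 45, 27 and 44 UMIs in all. Of the Kv beta subunits, Kcnab2 stood at 0.156, 0.351 and 0.352 and Kcnab1 at 0.00689, 0.00598 and 0.0106. The delayed rectifier Kcnb2 (Kv2.2) lay at 0.160, 0.199 and 0.274. Kcnab2 and Kcnc4 were lower in the mixed library than in either regional library, by ratios to the regional mean of 0.444 and 0.512, and that library was counted with another Cell Ranger version and gene list, so version, age and tissue cannot be told apart.

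The BK pore gene Kcnma1 was next in order of level, at 0.959, 1.12 and 1.38 per 10000, and its neuronal beta subunit Kcnmb4 stood at 0.124, 0.154 and 0.139. Of the SK genes, Kcnn2 (0.147, 0.185 and 0.178) was above Kcnn3 (0.0315, 0.0422 and 0.0637) and Kcnn1 (0.0214, 0.0272 and 0.0277) in every library. The sodium-activated channel gene Kcnt1 lay at 0.0212, 0.0397 and 0.0351. Among K2P leak channels, Kcnk3 (TASK-1, closed by acid) led at 0.502, 0.804 and 0.801, followed by Kcnk2 (TREK-1, opened by stretch and lipids) at 0.189, 0.306 and 0.244 and Kcnk1 (TWIK-1) at 0.166, 0.129 and 0.158.

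The inward rectifiers were all below 0.1 per 10000. The GIRK1 gene Kcnj3 stood at 0.0423, 0.0424 and 0.0929 per 10000 and the GIRK3 gene Kcnj9 at 0.0242, 0.0278 and 0.0294. The GIRK4 gene Kcnj5, the usual partner of GIRK1 in atrial muscle, had 0, 1 and 9 UMIs over all neurons, and the GIRK2 gene Kcnj6 had 0, 0 and 3. The KATP pore gene Kcnj8 had 5, 2 and 3 UMIs, and Kcnj10 (Kir4.1, the glial rectifier) stood at 0.0258, 0.0281 and 0.0252. In the 1523, 1133 and 1254 neurons whose glial markers summed to under 2 per 10000, Kcnj10 stood at 0.00142, 0.00241 and 0.00155 and Kcna1 at 0.00218, 0.000439 and 0.00396, so most of their UMIs came from barcodes that also held glial RNA.

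Detection followed the levels. After each neuron was thinned to 10000 UMIs, Kcnip4 had a UMI in 83.9%, 80.4% and 81.1% of neurons, Kcnq3 in 78.6%, 79.1% and 85.7% and Kcnma1 in 61.3%, 63.2% and 69.2%, and these 3 members passed 50% in every library. In all, 17 members were seen in at least 10% of thinned neurons in every library and 5 in under 1%. The Fano factor, the variance over the mean of the thinned counts, was above 1.2 in every library for 5 members, Kcnip4, Kcnk2, Kcnk3, Kcnma1 and Kcnq3, and was highest for Kcnq3, at a mean of 1.73. The lowest mean among members above 0.1 per 10000 was 1.02, close to the value of 1 that counting alone gives.

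Neurons were divided by marker genes that are not members. Nos1 neurons had at least 2 UMIs of Nos1 per 10000. Of the rest, Ddah1 neurons had Npy below 4 and Ddah1 of at least 1, Edn3 neurons had Npy of at least 4 and Edn3 of at least 1, and the other Npy neurons had Npy of at least 4 without that much Edn3. There were 332, 103 and 436 Ddah1 neurons, 87, 128 and 82 Edn3 neurons, 38, 76 and 48 Nos1 neurons and 1499, 988 and 803 other Npy neurons. Of the 162 Nos1 neurons, 160 were also at or above the Npy limit. The UMIs of each subtype were summed per library and compared with the other Npy neurons of the same library by edgeR's quasi-likelihood test with the library as a block and Benjamini-Hochberg adjustment over 12044 genes. The 3 comparisons share those Npy neurons as reference. Kcna3, Kcnj5, Kcnj6 and Kcnj8 were too low to test, which left 31 members that passed the filter on low counts.

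Ddah1 neurons carried more transcript of GIRK1, Kcna5, Kcnd3, Kcnn3 and Kcna2 and less of Kcnn2, Kcna4 and Kcnc2 than the other Npy neurons. Of the 31 members tested, 10 rose and 9 fell, where 21.5% of all genes tested were called in either direction, 10.5% higher and 11.0% lower. The median absolute log2 fold change was 0.45 over the members and 0.14 over all genes tested, and the signed medians were 0.03 and 0.00.

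The gene for GIRK1, Kcnj3 (chr2:55435970-55598145, plus strand), stood at 0.0113, 0.0217 and 0.0322 UMIs per 10000 in the other Npy neurons and at 0.168, 0.108 and 0.202 in Ddah1 neurons. Every Ddah1 value was above every Npy value, and the log2 fold change was 3.04 ± 0.20 (SE, edgeR adjusted p = 5.39e-10), an 8.22-fold difference. In neurons thinned to 10000 UMIs, 17.8%, 8.74% and 20.9% of Ddah1 neurons had a Kcnj3 UMI against 0.667%, 1.62% and 3.24% of other Npy neurons. Cardiomyocytes also hold Kcnj3. Their markers summed to 0.238, 0.594 and 0.489 per 10000 in Ddah1 neurons and 0.253, 0.617 and 0.776 in other Npy neurons, lower in Ddah1 neurons of every library.

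Kcna5 (Kv1.5; chr6:126532551-126535412, minus strand) was near 0 in the other Npy neurons, at 0.000919, 0.00180 and 0.00438 per 10000 (8, 7 and 20 UMIs), and reached 0.0362, 0.0479 and 0.0471 in Ddah1 neurons. The groups did not overlap, and the log2 fold change was 4.25 ± 0.32 (edgeR adjusted p = 3.56e-09), or 4.94 without the posterior library. Endothelial cells hold Kcna5 as well, and their markers summed to 0.844, 0.735 and 0.621 in Ddah1 neurons and 0.750, 0.755 and 0.686 in other Npy neurons, ranges that overlap. Smooth muscle cells or pericytes also held Kcna5, at 22.6, 20.3 and 6.21 times its level in all neurons. Their markers summed to 0.0235, 0.0192 and 0.0582 in Ddah1 neurons and 0.118, 0.0492 and 0.242 in other Npy neurons.

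Other members that rose in Ddah1 neurons changed by smaller amounts. Kcna2 (Kv1.2) went from 0.249, 0.243 and 0.326 per 10000 to 0.463, 0.469 and 0.554 (log2 fold change 0.85 ± 0.09), with no overlap. Kcnd3 (Kv4.3) went from 0.0291, 0.0281 and 0.0328 to 0.0612, 0.0599 and 0.0724 (1.08 ± 0.15), also with no overlap. Kcnb2, Kcna6, Kcnh1 and Kcnk1 rose by 0.58, 0.54, 0.51 and 0.44 on the log2 scale. Kcna1 rose by 0.74 ± 0.26 with an edgeR adjusted p of 0.0482, and the p was between 0.0318 and 0.317 under the alternatives that tested it. Glial markers summed to 4.71, 2.54 and 2.74 in Ddah1 neurons against 4.46, 2.40 and 1.92 in other Npy neurons. Their part in the Kcna1 level was not tested. In neurons with under 2 per 10000 of those markers Kcna1 was too low to test.

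The largest fall was in Kcnn2 (SK2, the small-conductance channel of the after-hyperpolarization), from 0.162, 0.175 and 0.223 per 10000 in other Npy neurons to 0.0362, 0.0431 and 0.0404 in Ddah1 neurons. The log2 fold change was -2.32 ± 0.11 (edgeR adjusted p = 9.08e-12), 4.98-fold lower, with no overlap. Its relative Kcnn3 (SK3; chr3:89520164-89675132, plus strand) went the other way, from 0.0276, 0.0340 and 0.0488 to 0.0510, 0.0934 and 0.0942 (1.02 ± 0.14, adjusted p = 1.1e-05). SK transcripts in Ddah1 neurons thus moved in opposite directions, and the remaining SK gene, Kcnn1, did not pass the test.

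Kcna4 (Kv1.4, an A-type channel; chr2:107290639-107298502, plus strand) fell from 0.245, 0.270 and 0.321 per 10000 to 0.0617, 0.0551 and 0.0685, a log2 fold change of -2.15 ± 0.14. Kcnc2 (Kv3.2) fell from 0.0657, 0.0830 and 0.0939 to 0.0143, 0.0144 and 0.0261 (-2.10 ± 0.16). Neither gene's groups overlapped. Kcnd2 (Kv4.2) fell by 1.39 ± 0.21 and Kcnt1 by 1.01 ± 0.20 on the log2 scale, and Kcnk2, Kcnab2, Kcnip4 and Kcnk3 by 0.45, 0.42, 0.32 and 0.25. Kcnd2 and Kcnd3, which encode Kv4 pores, therefore moved in opposite directions. Kcnq3 (0.03 ± 0.10, edgeR adjusted p = 0.916) and Kcnc4 (-0.10) did not pass the test.

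Thinning every neuron to 10000 UMIs left 22 members to test and 12 calls, and leaving out the library block left 9. Without the mixed, anterior or posterior library the test called 19, 16 and 15 members, and 15 of the 19 calls remained whichever library was left out. Kcna1 lost its call without each library, Kcnip4 and Kcnk3 without the anterior or the posterior, and Kcnt1 without the posterior, at edgeR adjusted p between 0.0509 and 0.257.

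**Figure D2:**
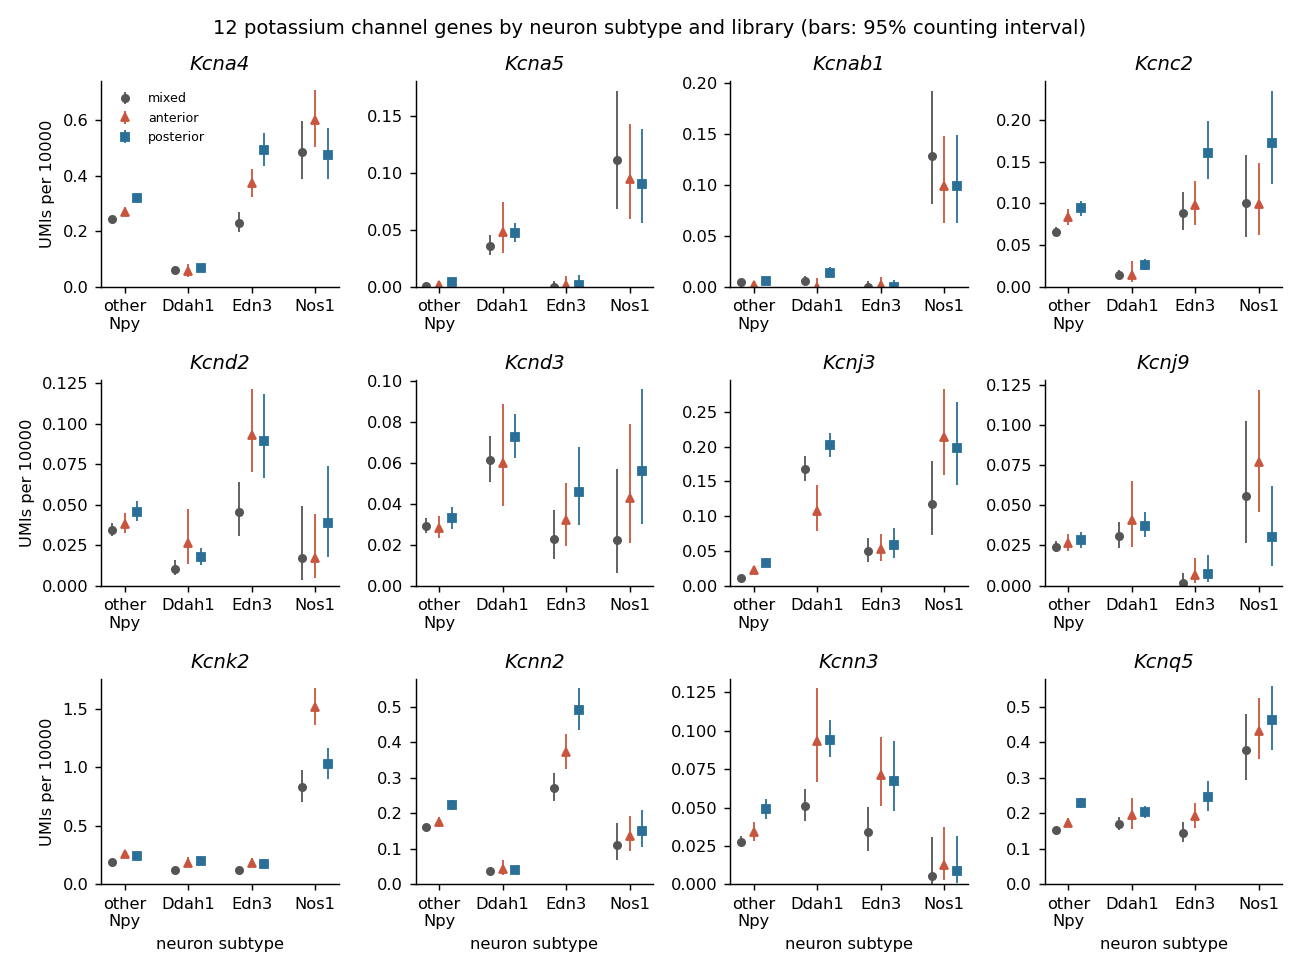
Levels of 12 potassium channel genes in UMIs per 10000 in the 4 neuron subtypes, with 1 mark per library and bars for the 95% counting interval. Kcnj3 is high in Ddah1 and Nos1 neurons, Kcnn2 is high in Edn3 and low in Ddah1 neurons, and Kcnk2 and Kcnab1 are high in Nos1 neurons.

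The windows of 250 bases before the RefSeq start were read from RefSeq GRCm38.p6 for the members it lists, which were 28 of 35, in 42 windows. They are shown for Kcnj3 and Kcna5, which rose most in Ddah1 neurons, for Kcna4, which fell there, and for Kcnj10, the glial gene described further on. Capitals mark the E-box CAGCTG, and positions are counted from 1 at the 5′ end of the window.
Kcnj3: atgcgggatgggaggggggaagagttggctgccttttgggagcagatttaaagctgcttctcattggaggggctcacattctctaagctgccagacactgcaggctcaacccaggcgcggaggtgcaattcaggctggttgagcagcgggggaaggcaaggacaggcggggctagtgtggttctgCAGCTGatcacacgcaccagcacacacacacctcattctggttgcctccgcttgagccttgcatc
Kcna5: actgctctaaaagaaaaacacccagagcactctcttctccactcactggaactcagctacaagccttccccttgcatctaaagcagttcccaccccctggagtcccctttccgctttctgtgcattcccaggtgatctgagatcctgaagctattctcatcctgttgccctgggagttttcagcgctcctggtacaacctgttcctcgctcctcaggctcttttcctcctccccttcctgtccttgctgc
Kcna4: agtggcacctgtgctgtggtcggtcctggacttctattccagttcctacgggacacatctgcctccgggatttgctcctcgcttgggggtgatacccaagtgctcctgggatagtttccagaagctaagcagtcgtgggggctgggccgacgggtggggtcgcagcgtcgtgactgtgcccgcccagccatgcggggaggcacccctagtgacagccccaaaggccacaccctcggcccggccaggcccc
Kcnj10: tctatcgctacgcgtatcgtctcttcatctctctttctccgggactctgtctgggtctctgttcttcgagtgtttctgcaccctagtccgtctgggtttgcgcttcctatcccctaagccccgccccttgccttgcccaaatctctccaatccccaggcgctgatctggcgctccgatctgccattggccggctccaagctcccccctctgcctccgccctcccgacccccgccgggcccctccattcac
The windows lie at chr2:55435720-55435969 (plus strand) for Kcnj3, chr6:126535556-126535805 (minus strand) for Kcna5, chr2:107290339-107290588 (plus strand) for Kcna4 and chr1:172340960-172341209 (plus strand) for Kcnj10, on mm10. The Kcna5 and Kcna4 windows start from RefSeq starts outside the GENCODE gene models. The motifs searched, on both strands, were the E-box CAGCTG, which reads the same on both, the Sox-type motif ACAAAG and the cAMP response element core TGACG. Of these 4 windows only that of Kcnj3 held any, the E-box at position 186. CAGCTG was in 26.2% of the member windows (11 windows of 6 genes, several of them overlapping windows of Kcnc2) against 13.0% of all 32851 windows. ACAAAG was in 16.7% against 16.5% and TGACG in 14.3% against 17.8%. The median GC content was 59% in member windows and 52.4% in all.

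Edn3 neurons held more channel transcript in most of the members that passed the test. Of 31 members, 12 rose and 3 fell, where 26.0% of all genes tested were called, 15.7% higher and 10.4% lower. The members summed to 8.68, 13.8 and 16.4 per 10000 in Edn3 neurons and 8.48, 10.2 and 12.3 in other Npy neurons, close together in the mixed library and apart in the regional ones. Edn3 neurons were also deeper, with median depths of 83379, 47509 and 66580 UMIs against 56660, 39837.5 and 58632, and thinning to 10000 UMIs left 7 calls of 22 members tested. There were 15 calls in neurons of at least 20000 UMIs and 16 without the 5% deepest neurons.

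Kcnn2, which fell in Ddah1 neurons, rose in Edn3 neurons, to 0.272, 0.372 and 0.491 per 10000 (log2 fold change 0.94 ± 0.09, edgeR adjusted p = 1.23e-06). The Edn3 values were all above the Npy values. After thinning, 26.4%, 30.5% and 42.7% of Edn3 neurons had a Kcnn2 UMI, beside 3.92%, 5.83% and 2.75% of Ddah1 neurons. Kcnj3 rose to 0.0493, 0.0525 and 0.0584 (1.35 ± 0.30, or 2.07 after thinning), below its level in Ddah1 neurons in every library.

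The GIRK3 gene Kcnj9 (chr1:172320501-172329318, minus strand) had its lowest levels here, at 0.00141, 0.00677 and 0.00730 per 10000 (1, 4 and 4 UMIs) against 0.0241, 0.0263 and 0.0282 in other Npy neurons. The log2 fold change was -2.47 ± 0.41 (edgeR adjusted p = 0.000329), with no overlap. GIRK1 and GIRK3 transcripts thus moved in opposite directions in Edn3 neurons. Kcnk2 fell by 0.62 ± 0.12 on the log2 scale, from 0.195, 0.262 and 0.240 to 0.118, 0.186 and 0.175.

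The remaining calls in Edn3 neurons were smaller or less stable. The Kv4 gene Kcnd2 rose by 0.84 ± 0.19 (log2), Kcnn3 by 0.55, the 3 Kv3 genes Kcnc4, Kcnc2 and Kcnc1 by 0.45, 0.44 and 0.42, and Kcna6, Kcnh1, Kcna2, Kcnq3 and Kcnh2 by 0.42, 0.40, 0.37, 0.32 and 0.32. Kcnj10 fell by 1.00 ± 0.30, where glial markers summed to 2.93, 1.43 and 0.400 per 10000 in Edn3 neurons against 4.46, 2.40 and 1.92 in other Npy neurons. In neurons with under 2 per 10000 of those markers Kcnj10 was too low to test. Only 4 calls, those of Kcnj3, Kcnn2, Kcnj9 and Kcnk2, remained whichever library was left out. The count was 16 without the mixed, 4 without the anterior and 5 without the posterior library, and the other 11 calls were lost at edgeR adjusted p between 0.0522 and 0.387. With no library block, 2 calls were left.

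Nos1 neurons held more transcript of Kv1.5, Kv beta 1, TREK-1 and GIRK1 than other Npy neurons. Kv1.5 and GIRK1 also rose in Ddah1 neurons, where Kv beta 1 was not called and TREK-1 fell. In Nos1 neurons 8 of 31 members rose and 5 fell, where 10.5% of all genes tested were called, 5.94% higher and 4.57% lower. The median absolute log2 fold change was 0.57 over the members and 0.18 over all genes tested. With libraries scaled by their totals alone the split was 10 higher and 3 lower, and with no library block 8 members were called.

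Kcnab1 (Kv beta 1, which speeds inactivation of Kv1 channels; chr3:65109384-65378223, plus strand) stood at 0.128, 0.0985 and 0.0992 per 10000 in Nos1 neurons and at 0.00448, 0.00180 and 0.00525 in other Npy neurons. The groups were far apart, at a log2 fold change of 4.73 ± 0.40 (edgeR adjusted p = 6.06e-08). A Kcnab1 UMI was found in 10.5%, 11.8% and 10.4% of thinned Nos1 neurons and in 0.667%, 0.202% and 0.125% of other Npy neurons. Mural cells also hold Kcnab1, and their markers summed to 0.0223, 0.0514 and 0.0259 per 10000 in Nos1 neurons, against 0.118, 0.0492 and 0.242 in other Npy neurons.

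Kcna5 reached 0.111, 0.0943 and 0.0906 per 10000, above Ddah1 neurons in every library, with a log2 fold change of 5.40 ± 0.41 against other Npy neurons, or 4.78 without the mixed and 6.21 without the posterior library. Endothelial markers summed to 0.724, 0.664 and 0.556 per 10000 in Nos1 neurons, below other Npy neurons in every library. Kcnk2 (chr1:189207930-189402273, minus strand) stood at 0.829, 1.51 and 1.03 against 0.195, 0.262 and 0.240 (2.20 ± 0.11, edgeR adjusted p = 1.46e-11). Of the 3 K2P members it had the highest level in Nos1 neurons of every library, whereas Kcnk3 led in the other 3 subtypes. In thinned cells a Kcnk2 UMI was found in 52.6%, 63.2% and 45.8% of Nos1 neurons and 18.1%, 22.0% and 21.0% of other Npy neurons.

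Kcnj3 stood at 0.117, 0.214 and 0.198 per 10000 in Nos1 neurons (log2 fold change 3.07 ± 0.31, or 3.71 after thinning), with a UMI in 13.2%, 19.7% and 25% of thinned cells. Cardiomyocyte markers summed there to 0.412, 0.926 and 0.518 per 10000, above other Npy neurons in the mixed and anterior libraries and below them in the posterior, and their part in the Kcnj3 level was not tested. Kcnq5 rose from 0.152, 0.173 and 0.229 to 0.379, 0.433 and 0.461 (1.15 ± 0.11), while its partner Kcnq3 did not pass the test. Kcna4, Kcnb2 and Kcnab2 rose by 0.84, 0.81 and 0.78. Kcna4 was thus high in Nos1 neurons, at 0.484, 0.600 and 0.474, and low in Ddah1 neurons.

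Of the 5 members that fell in Nos1 neurons, Kcnip4 went from 2.21, 1.97 and 2.35 per 10000 to 1.20, 1.22 and 1.15, a log2 fold change of -0.92 ± 0.10 (edgeR adjusted p = 9.76e-07) with no overlap. Kcnn3 fell by 2.08 ± 0.44, to 0.00557, 0.0129 and 0.00863, values that rest on 1, 3 and 2 UMIs. Kcnk1, Kcnn2 and Kcnk3 fell by 0.61, 0.55 and 0.39. Without the mixed, anterior or posterior library 14, 9 and 11 members were called. Kcna4, Kcnk1, Kcnk3 and Kcnn2 lost their call without the anterior library and Kcnk1, Kcnn2 and Kcnn3 without the posterior, at edgeR adjusted p between 0.0509 and 0.346.

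Across the 3 comparisons 27 of the 31 members were called at least once, beside 43.2% of all genes tested. By more than 2-fold it was 13 members and 9.03% of all genes, and by more than 4-fold 9 members and 3.42%. Kcnj3, Kcnk2, Kcnn2 and Kcnn3 were called in all 3. Kcnj3 rose in each, while Kcnk2 rose in Nos1 neurons and fell in the others, Kcnn2 rose in Edn3 neurons and fell in the others, and Kcnn3 fell in Nos1 neurons and rose in the others. Kcnd1, Kcnma1, Kcnmb4 and Kcnn1 were called in none, and for Kcnma1 the edgeR adjusted p was 0.0568 in Ddah1 and 0.062 in Edn3 neurons.

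**Figure D3:**
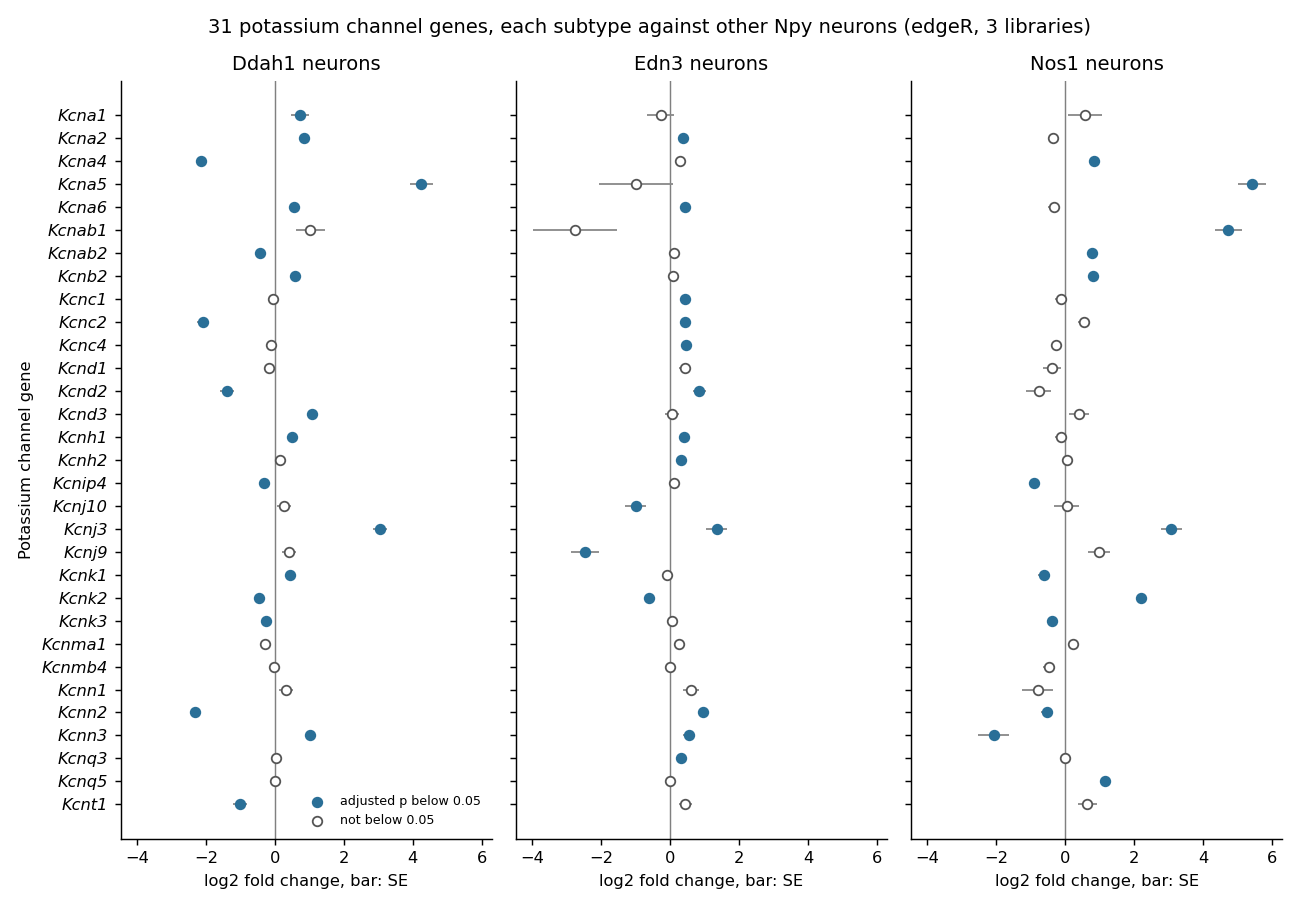
Log2 fold change (bars, SE) of the 31 tested members against other Npy neurons in Ddah1, Edn3 and Nos1 neurons, with filled marks for an edgeR adjusted p below 0.05. Kcna5 and Kcnj3 lie far to the right for Ddah1 and Nos1 neurons, at 4.25 and 3.04 and at 5.40 and 3.07, and Kcnn2 lies at -2.32 for Ddah1 neurons and 0.94 for Edn3 neurons.

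Other potassium channel genes, a list of 65 of which 64 were found and 20 could be tested, also differed. They are set beside 21.5%, 26.0% and 10.5% of all genes called for Ddah1, Edn3 and Nos1 neurons, of which the Edn3 share is near the 35% of this list. In Ddah1 neurons 3 rose and 7 fell, with Kcnh8 (1.76 ± 0.11, log2) and Kcnk12 (1.57 ± 0.18) highest and Lrrc55, a BK gamma subunit (-3.80 ± 0.32), and Dpp10, a Kv4 partner (-2.63 ± 0.42), lowest. In Edn3 neurons 6 rose and 1 fell, with Lrrc55 (1.47 ± 0.18) and Kcnh8 (0.83 ± 0.15) highest and Kcnk13 (-0.92 ± 0.31) and Dpp6 (0.28 ± 0.09) lowest. In Nos1 neurons 4 rose and 3 fell, with Kcnt2 (5.25 ± 0.67) and Abcc9 (4.25 ± 0.51) highest and Kcnh7 (-1.72 ± 0.44) and Kcns3 (-1.70 ± 0.29) lowest. Lrrc55, the partner of the BK pore, thus moved in opposite directions in Ddah1 and Edn3 neurons, where Kcnma1 did not pass the test. Abcc9 encodes a partner of the Kcnj8 pore, which was too low to test. Kcnj11, also a KATP pore gene and named after its values were seen, rose by 0.89 ± 0.27 in Nos1 neurons (edgeR adjusted p = 0.0434). It fell by 0.57 ± 0.20 in Ddah1 neurons and did not pass the test in Edn3 neurons.

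Receptors known to open GIRK channels were followed beside Kcnj3 and Kcnj9, and 13 of 16 could be tested, beside the same 21.5%, 26.0% and 10.5% of all genes. In Ddah1 neurons 4 rose and 4 fell, in Edn3 neurons 7 rose and 1 fell, and in Nos1 neurons 4 rose and 3 fell. The M2 muscarinic receptor gene Chrm2, named after its values were seen, rose by 0.74 ± 0.10 (log2) in Ddah1 neurons and 0.34 ± 0.10 in Edn3 neurons and fell by 0.58 ± 0.12 in Nos1 neurons. Galr1, a galanin receptor gene also named after its values were seen, stood at 0.640, 0.823 and 0.289 per 10000 in Nos1 neurons and at 0.00529, 0.0106 and 0.00438 in other Npy neurons (6.39 ± 0.24).

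Barcodes of at least 1000 UMIs that were not neurons were classed by other marker genes. The libraries held 86, 145 and 150 satellite glia or Schwann cells, with median depths of 3242, 2411 and 4782.5 UMIs, and fibroblasts, mural cells (smooth muscle cells or pericytes), macrophages and endothelial cells. Neuronal RNA was also counted in these cells. Snap25, Prph and Stmn2 summed in glia to 2.53%, 5.23% and 6.44% of their level in neurons. Against glia 15 members could be tested, 5 were higher in neurons and 7 lower, where 64.4% of the 8199 genes tested were called, 33.7% higher and 30.7% lower. Without the filter on low counts all 35 were tested, and 18 were higher and 6 lower. The members' 12 of 15 thus stand beside a background in which most genes differed.

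Kir4.1 and the Kv1 genes Kcna1, Kcna2 and Kcna6 were higher in glia. Kcna3 and Kcna5 had 0 UMIs in glia of each library and Kcna4 had 0, 3 and 1. Glia held 320442, 431021 and 745565 UMIs of all genes, too few to tell the low neuronal levels of Kcna3 and Kcna5 from 0. Kcnj10 (Kir4.1, which clears potassium around neurons; chr1:172341210-172374085, plus strand) stood at 2.78, 2.11 and 3.15 per 10000 in glia and at 0.0258, 0.0281 and 0.0252 in neurons, a log2 fold change for neurons over glia of -6.47 ± 0.28 (edgeR adjusted p = 1.59e-10). Glial markers themselves summed to 224, 136 and 163 in glia and 4.4, 2.33 and 2.11 in neurons, and the log2 fold change of Kcnj10 was -10.37 against neurons with under 2 per 10000 of those markers. Kcna1 (Kv1.1; chr6:126640397-126646384, minus strand) stood at 1.59, 1.83 and 1.52 in glia and 0.0151, 0.0116 and 0.0148 in neurons (-6.70 ± 0.31, or -9.30 with those neurons). In the same neurons Kcna2 and Kcna6 stayed near their level in all neurons, at 0.243, 0.264 and 0.385 and at 0.216, 0.361 and 0.447. The groups of Kcnj10 and Kcna1 did not come near each other.

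Kcna2 stood at 4.12, 3.67 and 3.98 per 10000 in glia, where it was the most abundant member, against 0.286, 0.280 and 0.403 in neurons (log2 fold change -3.43 ± 0.28). Kcna6 (chr6:126708329-126740674, minus strand) stood at 2.15, 2.85 and 2.17 against 0.229, 0.372 and 0.449 (-2.62 ± 0.20). Kcnmb4, Kcnn2 and Kcnh2 were also lower in neurons, by log2 fold changes of -1.80, -1.21 and -0.89. The genes for Kcna1, Kcna5 and Kcna6 lie beside each other on chromosome 6, with gaps of 105.0 kb and 61.9 kb. Of these Kcna1 and Kcna6 were higher in glia, and Kcna5 was too low to compare.

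The most abundant neuronal members went the other way. Kcnma1 stood at 0.0312, 0.0928 and 0.0939 per 10000 in glia (log2 fold change for neurons 4.06 ± 0.44), Kcnip4 at 0.0312, 0.232 and 0.201 (3.86 ± 0.40), Kcnq3 at 0.0312, 0.394 and 0.215 (3.57 ± 0.47, or 4.43 without the anterior library) and Kcnc4 at 0.0624, 0.0928 and 0.0939 (3.72 ± 0.35). Kcnab2 was higher in neurons by 2.54 ± 0.50 and was too low to test without the anterior library. Kcnk3 stood at 0.593, 0.882 and 0.724 in glia, overlapping neurons (0.14 ± 0.24, edgeR adjusted p = 0.651).

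With all cells thinned to 1000 UMIs, Kcna1 had a UMI in 18.6%, 16.6% and 11.3% of glia and 0.0507%, 0.0761% and 0.347% of neurons. Unthinned shares were 34.9%, 31.7% and 39.3% of glia and 6.75%, 3.42% and 5.13% of the much deeper neurons. Kcnj10 had a UMI in 30.2%, 15.9% and 19.3% of thinned glia and 0.203%, 0.457% and 0.277% of neurons. Kcnq3 had one in 16.6%, 18.9% and 23.1% of thinned neurons and 0%, 3.45% and 1.33% of glia. For each of these 3 genes the share and the level were higher in the same class, glia or neurons, in every library.

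**Figure D4:**
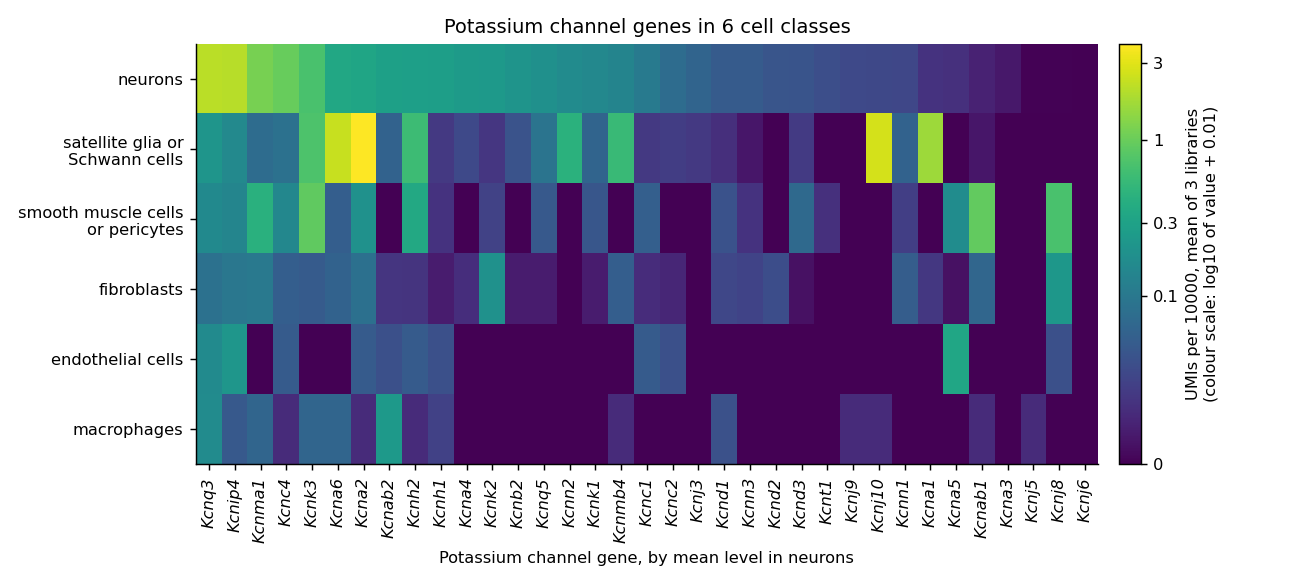
Mean level over the 3 libraries of the 35 members in neurons and 5 other cell classes, coloured by log10 of UMIs per 10000 plus 0.01. Kcna1, Kcna2, Kcna6 and Kcnj10 are brightest in glia, Kcnj8 and Kcnab1 in mural cells, and Kcnq3, Kcnip4, Kcnma1 and Kcnc4 in neurons.

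Against the log2 mean of the other cell classes, 11 of 15 members were higher in neurons and 0 lower by edgeR, where 63.8% of genes tested were called, 38.2% higher and 25.6% lower. Each class had equal weight, also where it held 0 UMIs of a member, as endothelial and mural cells did for Kcna1. At an unadjusted p below 0.05 edgeR also gave 0 members lower. DESeq2 called 3 lower, among them Kcna1 at -1.23, against its sign by edgeR. Kcnc4, Kcnip4, Kcnk3 and Kcnq3 were among the 11, though Kcnk3 did not pass the test against glia. Of the same 15 members 7 were lower in neurons than in glia, while only 4 were not called here. The 11 thus include members that were lower in neurons than in glia, and the count is not one of genes highest in neurons. For the 11 only the direction is read, since the fitted log2 fold changes moved widely over the alternatives. They ran from 4.04 to 6.01 for Kcnc4 and from 2.46 to 4.31 for Kcnk3. Some members that were scarce in neurons were high in mural cells. Kcnj8 (the vascular KATP pore) stood there at 0.486, 1.08 and 0.503 per 10000 and Kcnab1 at 1.21, 0.948 and 0.629. Kcna5 was also higher in mural cells, at 22.6, 20.3 and 6.21 times its neuron level. It stood at 0.229, 0.273 and 0.491 in endothelial cells, on 1, 2 and 5 UMIs.

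Regions were compared without a test, since each had 1 library. Of 22 members above 5 UMIs per 1000000 in the anterior or the posterior library, 2 passed a 1.5-fold difference toward the posterior and 0 toward the anterior, where 2.47% of 9868 genes passed that fold, 2.17% posterior and 0.304% anterior. Kcnj3 went from 0.0424 per 10000 in anterior to 0.0929 in posterior neurons, a ratio of 2.19 (95% counting interval 1.88 to 2.56), and Kcnn3 from 0.0422 to 0.0637, a ratio of 1.51 (1.29 to 1.78). Kcnq3 had a ratio of 1.35 (1.32 to 1.38) and Kcna2 of 1.44 (1.35 to 1.53), and Kcnk2 had the lowest, at 0.798 (0.746 to 0.853). The intervals cover counting error only. The median ratio was 1.14 over the members and 1.07 over all genes. Scaling by TMM factors shifts all log2 ratios by -0.11 and leaves 1 member past 1.5-fold.

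Subtype shares moved with region. Ddah1 neurons were 7.84% of anterior and 30.2% of posterior neurons, and they held more Kcnj3 and Kcnn3 than other Npy neurons. Nos1 neurons, with about as much Kcnj3, went from 5.78% to 3.33%, and Edn3 neurons, also with more Kcnn3, from 9.74% to 5.68%. Within the other Npy neurons, 20 members were measured and 0 passed 1.5-fold, with a median ratio of 1.15. Kcnj3 there had a ratio of 1.49 (1.13 to 1.97), and within Ddah1 neurons of 1.87 (1.38 to 2.60). Kcnn3 had a ratio of 1.43 (1.15 to 1.79) within other Npy neurons and 1.01 (0.717 to 1.45) within Ddah1 neurons. For Kcna4 and Kcnn2, both low in Ddah1 neurons, the ratio lay on the other side of 1 within other Npy neurons. Kcna4 had a ratio of 0.915 (0.855 to 0.980) in all neurons and 1.19 (1.10 to 1.29) in other Npy neurons, and Kcnn2 of 0.966 (0.890 to 1.05) and 1.28 (1.16 to 1.41). Toward the posterior, 1 of 21 members measured in Ddah1 neurons, 1 of 25 in Edn3 neurons and 4 of 25 in Nos1 neurons passed 1.5-fold. Toward the anterior the counts were 0, 0 and 1. The Nos1 values rest on 76 anterior and 48 posterior neurons. Within Nos1 neurons Kcnk2 had a ratio of 0.679 (0.573 to 0.802), short of 1.5-fold, and Kcnma1 of 1.52 (1.29 to 1.78).

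**Figure D5:**
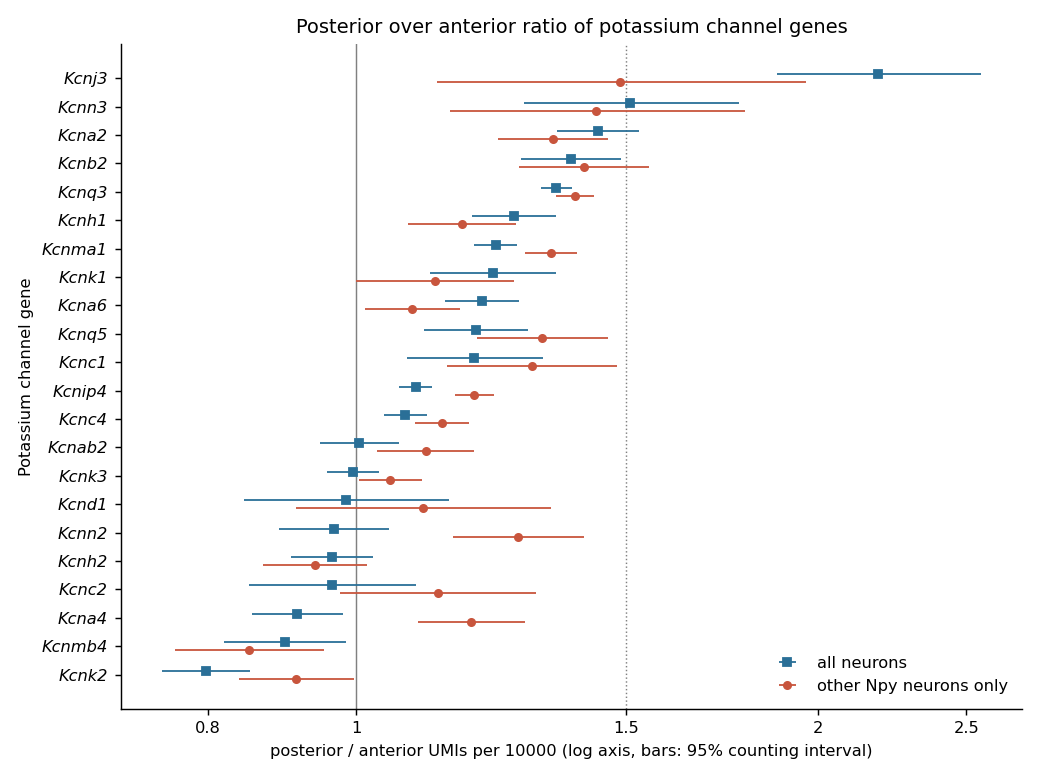
Ratio of the level in posterior to that in anterior neurons for 22 members, with 95% counting intervals, for all neurons (squares) and other Npy neurons (circles), and a dotted line at 1.5-fold. Kcnj3 lies at 2.19 for all neurons and 1.49 for other Npy neurons, and Kcnk2 lies lowest at 0.798 for all neurons.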

How the data were processed

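The deposited matrices hold raw counts of UMIs per gene and barcode, with no normalization, from 1 library each of mixed, anterior and posterior ganglia. Cell Ranger 3.1.0 (mixed) and 6.1.2 (anterior and posterior) produced them, per the file headers, while the submitters' processing notes name Cell Ranger 7.1.0, Seurat 4.4.2 and mm10. Only genes listed in all 3 matrices were used. The members and all lists were chosen with earlier results of these data known.

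Counts were summed per library and subtype or class, leaving out sums of fewer than 10 cells and the classes that fell short of it in a library (cardiomyocyte, lymphocyte and epithelial cell). Sums were tested with edgeR 4.0.16 (R 4.3.3; TMM, filterByExpr, library block, glmQLFTest), with Benjamini-Hochberg adjustment over all genes tested and a threshold of 0.05. The block takes out differences between libraries that all their sums share. A p-value from the blocked fit measures only how the differences between subtypes or classes varied over the 3 libraries. That spread is pooled over the subtypes or classes of a fit, and the libraries differ in region and labelled age. Other classes needed at least 2 of their markers, summed to at least 5 per 10000 and 3 times every other class. Alternatives were DESeq2 1.42.0, other scaling, no filter, no block, other limits for neurons, subtypes and gates, thinning, neurons without glial RNA (glial markers under 2 per 10000), and each library left out. No doublet caller was run, and an alternative left out the 5% deepest neurons of each library. A further one, chosen after seeing the data, left out the 10% of neurons richest in Malat1. Ratios have exact conditional Poisson 95% intervals. All 35 members were described, and of the other potassium channel genes the 2 highest and 2 lowest past the threshold were named. Kcnj11 was added to these after its values were seen. Positions are from GENCODE vM21 (mm10). The procedure was tested on simulated data, where the share of false calls was above the 0.05 threshold, so calls near it are less firm.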

Additional observations from a re-analysis of the deposited data

Results flagged for a closer look

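Kcnq3 went in opposite directions in Nos1 neurons of the 2 regions. In the anterior library the ratio of its level in Nos1 neurons to that in other Npy neurons was 0.857 (95% counting interval 0.771 to 0.950), and in the posterior library it was 1.15 (1.07 to 1.25). In the mixed library Kcnq3 stood at 1.81 per 10000 in Nos1 and 1.65 in other Npy neurons. With 1 library per region the difference between the regions was not tested.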

How the results depend on the processing

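The Ddah1 comparison had 19 called members, and the count was 12 with neurons thinned to 10000 UMIs (of 22 that could be tested), 9 with no library block and 15 to 19 with 1 library left out. For Edn3 neurons, 15 calls became 7 after thinning, 2 with no library block and 4 to 16 with 1 library left out. For Nos1 neurons, 13 calls became 9 after thinning (of 22 tested), 8 with no library block and 9 to 14 with 1 library left out. The 5 falls among them became 2 after thinning, with no library block, and without the anterior or the posterior library. There were also 2 falls without the neurons richest in Malat1, but 5 by DESeq2 and 6 without the mixed library. Without the filter on low counts 24 members were called against glia in place of 12, now mostly higher in neurons, and 26 against the mean of the other classes in place of 11, since all 35 were then tested, and with 1 library left out the counts were 11 to 12 and 10 to 11. Of the 2 members past 1.5-fold between regions, TMM factors left 1 and other Npy neurons alone 0. A minimum of 20 UMIs per 1000000 removed both, so its count of 0 says nothing about them. By DESeq2 the sign turned for Kcnj8 against glia (-3.25, log2) and for Kcna1 against the mean of the other classes (-1.23), and neither was called by edgeR. Apart from the filter and the number of libraries or members tested, the cause of these shifts was not tested. No paired analysis by replicate number was possible because each group has 1 library. In neurons without glial RNA 17 members reached 10% of thinned neurons, the same 17 as in all neurons. The number of Nos1 neurons, 162 in all, and the depth of glia limit what could be tested.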

Other observations

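Some members were also counted in classes too small for a test, among them Kcnj5 and Kcnj6, which neurons nearly lacked. In cardiomyocytes, of which there were 2, 30 and 14, Kcnj3 stood at 0.556, 3.61 and 4.02 UMIs per 10000 and Kcnj5, its atrial partner, at 1.11, 1.87 and 1.18. Kcnk3 stood there at 1.11, 3.07 and 2.13 and Kcnh2, which carries the rapid delayed rectifier of heart muscle, at 1.11, 0.935 and 0.709. In the 65 epithelial cells of the posterior library Kcnk1 stood at 1.91 (97 UMIs) and Kcnc1 at 0.904 (46 UMIs), and Kcnj6 had 10 UMIs, against 3 in all posterior neurons.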
